A study of Mus musculus with 16 samples.

Results

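The loss of the second Ezh1 allele from kidneys that already lacked Ezh2 was examined by comparing 4 arrays of double knockout kidneys with 4 arrays of kidneys that kept 1 Ezh1 allele. These 8 arrays were chosen by their titles out of 16 in the series. Both groups, from C57BL/6 embryos at embryonic day 17.5, carried the conditional homozygous Ezh2 knockout in Six2-positive nephron progenitors. The Ezh1-het group had in addition lost 1 Ezh1 allele in the germline, and the double knockout had lost both. Wild-type controls and kidneys with the Ezh2 knockout and wild-type Ezh1 (Ezh2-KO), with 4 arrays each and of the same strain and age, serve here as reference points. Each array measured the total RNA of 1 kidney sample in Cy5 against RNA of control 1 in Cy3, with no dye swap, so levels are given as log2(Cy5/Cy3) and differences as double knockout minus Ezh1-het on that log2 scale. The Ezh2 deletion is restricted to Six2-positive cells and their descendants, whereas Ezh1 was lost from every cell. Whole kidneys mix these lineages with stroma, vessels and collecting ducts, and fewer cells of a type cannot be told apart from less RNA per cell.

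Ezh1 and Ezh2 are the alternative catalytic subunits of Polycomb repressive complex 2 (PRC2), which methylates lysine 27 of histone H3 and keeps developmental genes silent outside their own lineages. Ezh2 is the main methyltransferase of dividing cells, and Ezh1 has a weaker activity and is more prominent in cells that divide little. Well-known targets are the Hox clusters, the homeobox and forkhead factors of other organs, and the Cdkn2a locus. In the kidney, PRC2 acts in nephron progenitors, which either renew or become podocytes and tubules.

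The series' design text calls the samples biological replicates. Among the 8 arrays, Cy5 signal at the 75th percentile was 9.61 to 14.1 times background, 55.1% to 59.2% of probes gave Cy5 signal well above background, and no spot was saturated. The arrays lay on 2 slides, each with replicates 1 and 2 or 3 and 4 of every genotype. On the first principal component of all 16 arrays, which held 36.2% of the variance, control 3 (score 37.3) and Ezh2-KO 1 (31.4) lay at the positive end. The double knockouts scored -0.48 to 22.6 and the Ezh1-het arrays -28.4 to -13.6. Defining markers of nephron progenitors (Six2, Cited1), podocytes (Nphs1), proximal tubule (Lrp2, Slc34a1) and stroma (Foxd1, Pdgfra) were well above background on all 8 arrays. So were Umod (thick limb), Aqp2 (collecting duct) and Emcn (endothelium). Other kidney markers were not. Podxl, Slc12a1 and Pecam1 were on 4 Ezh1-het and 3 double knockout arrays, Kdr on 4 and 1, Slc12a3 on 4 and 0, and Cdh5 on 2 and 0. Ret of the collecting duct was on none. Markers of cells from outside the kidney were mixed. Ngp (neutrophils), Apoa1 (liver) and Cyp11a1 and Cyp11b1 (adrenal) were well above background on none of the 8 arrays. The erythroid marker Hba-a1, the liver markers Afp and Ttr and the adrenal markers Star and Nr5a1 were on all 8. S100a8 was well above background on 3 Ezh1-het arrays and 1 double knockout array, and S100a9, Alb and Alas2 each on 4 and 3.

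The targeted gene followed the labels. Ezh1 stood at -1.38, -1.09, -1.17 and -0.88 on Ezh1-het arrays 1 to 4 and at -4.44, -4.59, -4.57 and -4.62 on double knockout arrays 1 to 4. All double knockout arrays lay far below every Ezh1-het array, and these below every array with wild-type Ezh1. Controls averaged -0.08 ± 0.26 and Ezh2-KO 0.05 ± 0.33 (SD, n = 4 each). From Ezh1-het to double knockout Ezh1 fell by 3.42 (SE 0.15, 10.72-fold, limma adjusted p = 3.46e-09). Unless stated, adjusted p are Benjamini-Hochberg values from limma over all genes tested. The 5 Ezh2 probes differed between the same groups by 0.02 to 0.34, with adjusted p of 0.686 to 0.987 over all probes. Both groups carry the same Ezh2 deletion. The brightest Ezh2 probe read -0.26, -0.23, -0.15 and -0.27 in Ezh1-het and -0.21, 0.17, -0.15 and -0.26 in the double knockout, which overlap. Its control mean was 0.11. Probe A_51_P248067 stood far lower wherever Ezh2 was deleted. Its means were 0.09 (control), -3.32 (Ezh2-KO), -3.43 (Ezh1-het) and -3.09 (double knockout). All other Ezh2 probes had control means of 0.05 to 0.29, and Ezh1-het and double knockout means of -0.45 to -0.11.

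The loss of the second allele raised developmental transcription factors of other organs, led by Foxf1 and Hoxd13. It lowered a set that included Aadat, Serpina6 and Agt, which encode an enzyme of amino acid breakdown and 2 plasma proteins. The calls of Aadat and Serpina6 were lost whichever of the 8 arrays was left out. Fewer genes fell than rose with all 16 arrays in the fit, whereas more fell than rose with only the 8 arrays compared. Of 15646 genes tested, 59 passed the threshold of 0.05 in limma (0.377% of all genes). Of these 37 rose (0.236%) and 22 fell (0.141%). Among them 13 differed at least 2-fold, 6 of them higher and 7 lower, and 41 differed at least 1.5-fold. These sizes depend on the processing. Under the alternative settings Foxf1 differed by 1.33 to 2.79, Hoxd13 by 1.08 to 1.72 and Nkx2-5 by 0.79 to 3.58. At an unadjusted p under 0.05 there were 569 higher and 1574 lower genes, and the 8 arrays of the groups did not overlap for 12.7% of all genes (2.83% higher, 9.83% lower). These values are the background for the counts of list members below. The number of calls depended on which arrays set the spread: with only these 8 arrays in the fit 1033 genes passed (6.6%), 155 of them higher (0.991%) and 878 lower (5.61%), and all 59 were among them. Leaving out any 1 of the 8 arrays from the fit of 16 gave 26 to 37 calls, of which 26 to 36 were among the 59. Median centring of the arrays in place of loess gave 37 higher and 13 lower calls, of which 38 were among the 59.

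**Figure D1:**
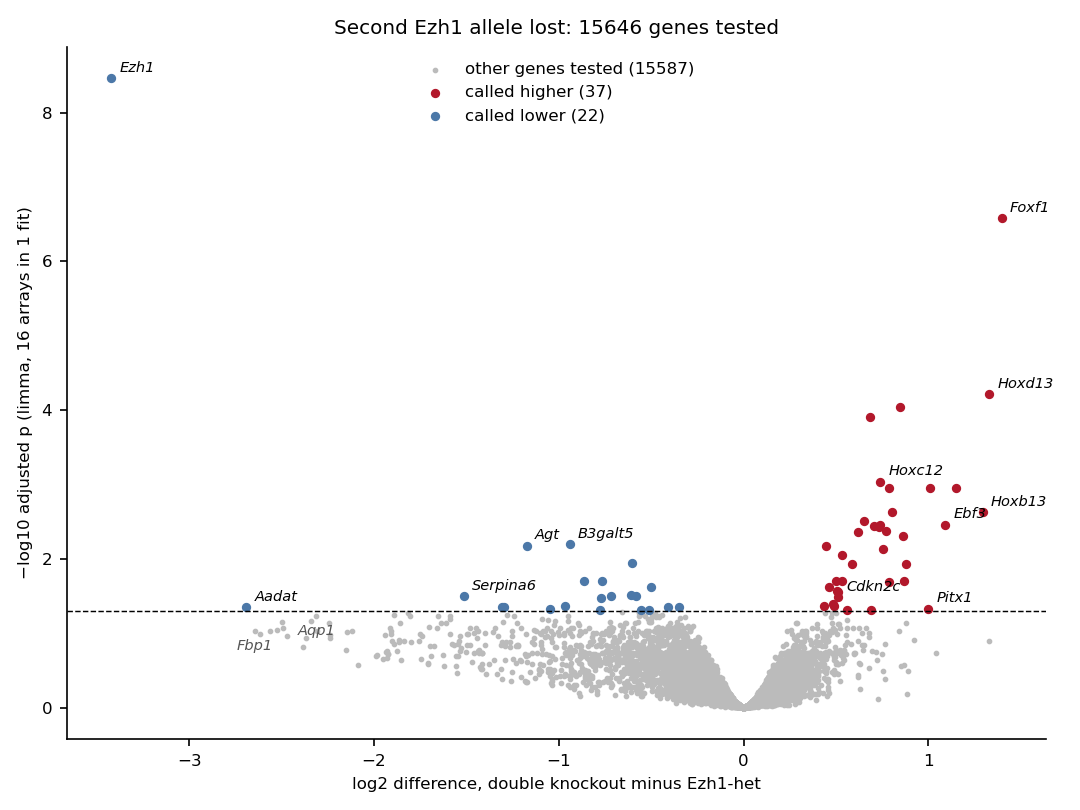
Each point is 1 of 15646 genes, with the log2 difference between double knockout and Ezh1-het on the x axis and the negative log10 of the limma adjusted p on the y axis; the dashed line marks 0.05. The 37 rises reach 1.40 (Foxf1), the 22 falls reach -3.42 (Ezh1), and many larger negative differences, such as Aqp1 at -2.31, lie below the line.

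The Hox genes at the 5′ end of the clusters, which pattern the tail end of the body, the limbs and the external genitalia, were higher. Of the 4 genes of group 13 all were measured and 3 rose (Hoxb13, Hoxc13 and Hoxd13), against 0.236% of all genes tested. Their median difference was 0.94, against -0.03 over all genes tested. Hoxd13 read 1.07, 1.29, 1.04 and 1.05 in Ezh1-het and 2.41, 2.12, 2.70 and 2.54 in the double knockout, with -0.19 to 0.22 in controls. The lowest double knockout array thus lay well above the highest Ezh1-het array, and Ezh1-het in turn above every control, where Hoxd13 was not well above background on any array. Cy3 carries control RNA, so for such genes the ratio is taken against a background-level signal. Hoxd13 rose by 1.33 (SE 0.12, 2.51-fold, limma adjusted p = 6.15e-05). Hoxb13 read 1.38, 0.81, 0.97 and 0.90 against 2.86, 2.24, 2.35 and 1.79, and rose by 1.29 (SE 0.17, adjusted p = 0.00238). Its double knockout arrays were more scattered than those of Hoxd13, yet none reached down to the Ezh1-het range.

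Hoxc13, a regulator of hair keratins, was dim: 0 of 4 Ezh1-het arrays and 4 of 4 double knockout arrays had it well above background, so that its rise was at least 1.5-fold (difference 0.59, SE 0.10, limma adjusted p = 0.0117), a call lost in 2 of 8 repeats that left out 1 array. Hoxa13 differed by 0.49 (SE 0.13, adjusted p = 0.0932), and its arrays overlapped, at 0.79 to 1.23 in Ezh1-het and 1.11 to 1.66 in the double knockout. In the fit of the 8 arrays alone it passed, at adjusted p = 0.0497. Of the 8 measured genes of groups 10 to 12, Hoxc12 rose at least 1.67-fold (0.74, SE 0.09, adjusted p = 0.000915), again from a level not well above background on any Ezh1-het array. Hoxd12, of the same groups, read -1.0, -0.25, -0.70 and -0.53 against -0.01, 0.28, 0.12 and 0.64, and its difference of 0.88 missed the threshold (adjusted p = 0.0734). None of the 26 measured genes of groups 1 to 9, which pattern the more anterior body, passed in limma, and 2 were lower at an unadjusted p under 0.05. Their median difference was -0.04, and the largest was that of Hoxd8, at -0.82 (SE 0.21, adjusted p = 0.0995).

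Transcription factors of mesodermal and endodermal organs other than the kidney formed the largest group of rises. Of 54 genes on this list 33 were measured and 10 rose (0.236% of all genes tested rose), none fell, and the median difference was 0.23. Of the 33, 8 were well above background on no Ezh1-het array, against 220 of all 15646 genes tested. The filter admits a gene dim in all other genotypes only through the 4 double knockout arrays. This can tilt the counts and the median towards rises. Foxf1, a forkhead factor of the lateral plate and of lung and gut mesenchyme, gave the clearest signal: 0.16, 0.39, 0.33 and 0.26 on the Ezh1-het arrays, 1.72, 1.49, 1.83 and 1.67 in the double knockout. Control arrays lay at -0.14 to 0.10 and Ezh2-KO arrays at -0.02 to 0.17, so the double knockout stood far above all other groups, which lay close together. Foxf1 rose by 1.40 (SE 0.09, 2.63-fold, limma adjusted p = 2.58e-07). Fendrr, the long non-coding RNA gene next to Foxf1, read 0.17, 0.15, 0.04 and 0.09 against 0.93, 0.73, 0.67 and 0.85 and rose by 0.68 (SE 0.07, adjusted p = 0.000123). A second Fendrr probe, for another RefSeq transcript, was not well above background on any of the 8 arrays.

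Pitx1, a hindlimb identity factor, rose by 1.00 (SE 0.20, limma adjusted p = 0.0466). Its arrays read 0.32 to 0.72 in Ezh1-het and 1.09 to 1.79 in the double knockout, but 1 control reached 0.81, and the call was lost when any of 7 of the 8 arrays was left out. The endodermal pioneer factors Foxa1 and Foxa2 rose by 0.86 and 0.79 (SE 0.13 and 0.14, adjusted p = 0.00488 and 0.0207), and the call of Foxa2 was lost in 4 of 8 repeats. Foxa1 was well above background on no Ezh1-het array and on all 4 double knockout arrays, a rise of at least 1.82-fold. Nkx2-5, the cardiac homeobox factor, read -0.15, 0.12, 0.01 and -0.11 against 0.68, 0.89, 0.98 and 0.71. No array of the other 3 genotypes had it well above background, and the rise was at least 1.80-fold (0.85, SE 0.08, adjusted p = 9e-05). The lung and thyroid factor Nkx2-1 rose at least 1.41-fold (difference 0.53, SE 0.09, adjusted p = 0.00894), and Sfta3-ps, its neighbour, at least 1.72-fold (0.79, SE 0.10, adjusted p = 0.0011).

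Other members of this list that rose were Prrx1 of the limb mesenchyme (by 0.77), Pax3 of neural crest and muscle precursors (at least 1.66-fold) and Tbx15 of the skeleton (at least 1.42-fold). The latter 2 were not well above background on any Ezh1-het array. Prrx1 was already higher in Ezh1-het (mean of 0.72) than in controls (0.10). Without any one of the 8 arrays, Prrx1 and Pax3 kept their calls, and Tbx15 lost its call in 6 of the 8 repeats. In contrast 13 list members, among them Tbx4, Tbx20, Hand1 and Myod1, were not well above background on any of the 8 arrays.

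**Figure D2:**
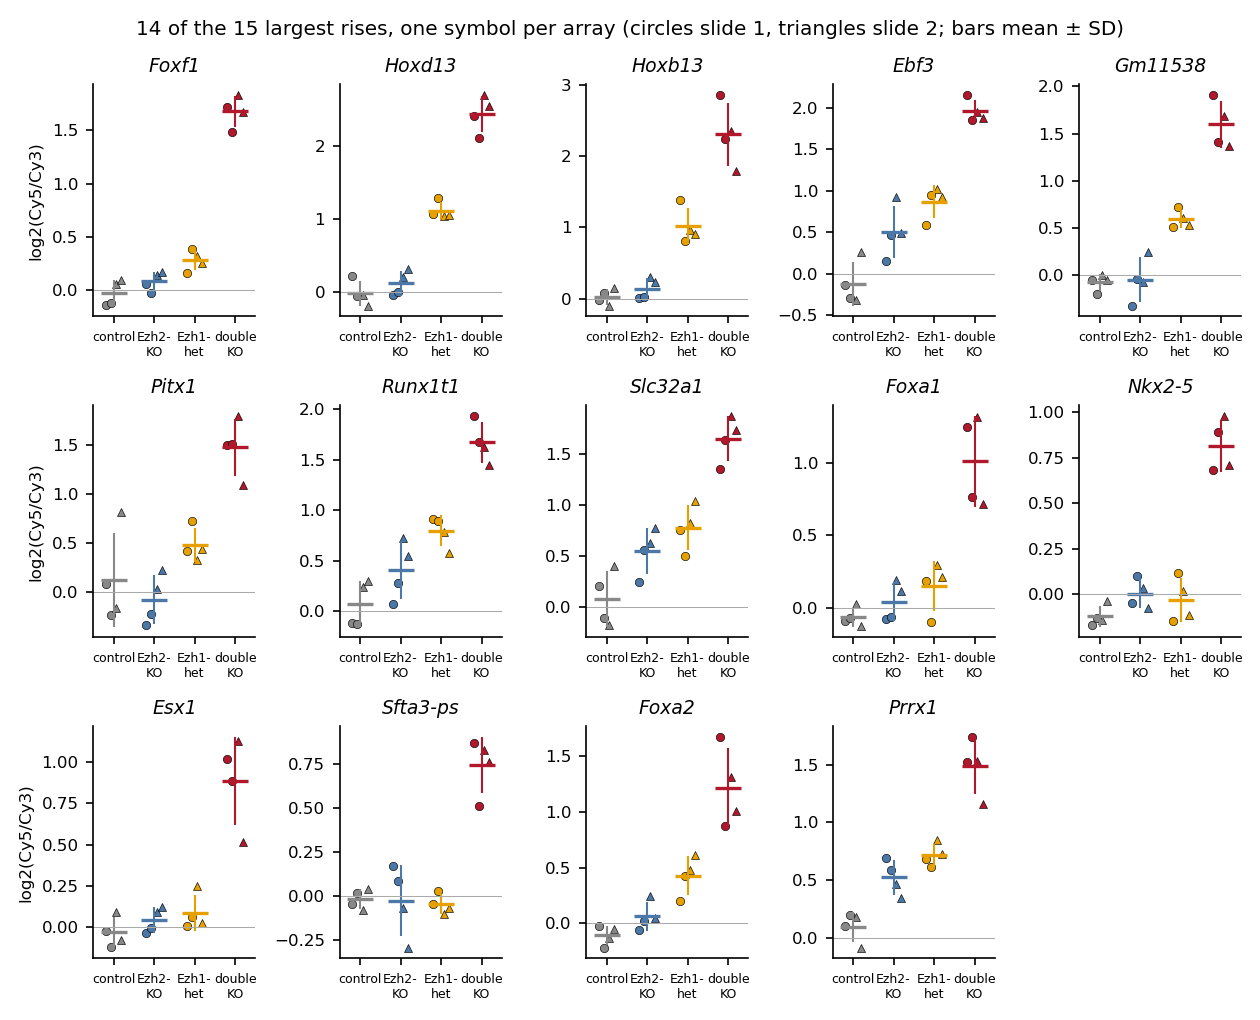
Each panel shows 1 gene among 14 of the 15 with the largest rises, with log2(Cy5/Cy3) on the y axis and the 4 genotypes on the x axis; each symbol is 1 array (circles slide 1, triangles slide 2), lines are means and bars SD (n = 4). In every panel the 4 double knockout arrays lie above the 4 Ezh1-het arrays, and the Ezh1-het mean ranges from near 0 (Nkx2-5, -0.03) to well above it (Hoxd13, 1.11).

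Of 73 factors of neural lineages 32 were measured and 5 rose (0.236% of all genes tested rose), with a median difference of 0.12. Lhx2, 1 of the 5, was well above background on no Ezh1-het array, so the filter can tilt this count too. Ebf3, a helix-loop-helix factor of maturing neurons, read 0.58, 0.95, 1.02 and 0.92 in Ezh1-het and 2.15, 1.85, 1.95 and 1.88 in the double knockout, and rose by 1.09 (SE 0.16, limma adjusted p = 0.00347). Its groups did not overlap. A second, dimmer Ebf3 probe differed by 0.38 in the same direction. Onecut2 rose by 0.75, the eye factor Vax2 by 0.53 (lost in 6 of 8 repeats that left out 1 array), and Lhx2, a factor of forebrain and eye, by at least 1.63-fold (0.71, SE 0.10, adjusted p = 0.00365). The list's largest difference was a negative one, in Tfap2b (-1.31, SE 0.66), which did not pass (adjusted p = 0.414). Outside the list, the cortical factor Tbr1 rose by 0.44, Dmrta2, a telencephalic factor well above background on 1 Ezh1-het array, by 0.49 (lost in all 8 repeats), and the placental homeobox gene Esx1 by at least 1.75-fold (0.80, SE 0.11, adjusted p = 0.00238).

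Some genes that rose were neighbours on their chromosome in the RefSeq gene table: Fendrr and Foxf1, Sfta3-ps and Nkx2-1, and Hoxc13 and Hoxc12 with no gene between them, Hoxb13 and the predicted gene Gm11538 (difference 1.01, SE 0.12, limma adjusted p = 0.0011) with 1 between, and Cdkn2c and Dmrta2 with 2 between. Unmethylated CpG-rich promoters are the usual places where PRC2 binds in vertebrates. The 250 bases upstream of the annotated start are shown for 3 genes that rose (Fendrr, Hoxd13 and Lhx2) and for Agt, which fell, as windows rich in CG and without it. They are RefSeq sequences of build GRCm38.p6 in lower case, with each CG dinucleotide in capitals.
Fendrr, chr8:121083111-121083360, minus strand: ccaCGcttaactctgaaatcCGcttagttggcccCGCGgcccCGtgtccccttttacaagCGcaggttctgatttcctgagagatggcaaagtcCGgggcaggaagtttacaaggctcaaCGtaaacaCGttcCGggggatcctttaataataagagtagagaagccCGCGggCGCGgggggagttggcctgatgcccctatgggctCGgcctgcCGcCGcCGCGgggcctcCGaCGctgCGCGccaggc
Hoxd13, chr2:74667975-74668224, plus strand: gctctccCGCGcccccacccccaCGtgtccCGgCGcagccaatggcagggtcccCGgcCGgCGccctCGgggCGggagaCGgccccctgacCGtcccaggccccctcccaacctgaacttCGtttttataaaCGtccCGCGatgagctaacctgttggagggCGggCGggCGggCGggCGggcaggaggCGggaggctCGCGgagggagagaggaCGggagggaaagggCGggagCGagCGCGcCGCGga
Lhx2, chr2:38339031-38339280, plus strand: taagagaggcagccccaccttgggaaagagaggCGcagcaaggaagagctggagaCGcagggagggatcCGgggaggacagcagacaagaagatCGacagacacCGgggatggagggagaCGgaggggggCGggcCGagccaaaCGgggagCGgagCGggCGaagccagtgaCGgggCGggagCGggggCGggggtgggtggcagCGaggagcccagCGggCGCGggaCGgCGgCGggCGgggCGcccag
Agt, chr8:124569707-124569956, minus strand: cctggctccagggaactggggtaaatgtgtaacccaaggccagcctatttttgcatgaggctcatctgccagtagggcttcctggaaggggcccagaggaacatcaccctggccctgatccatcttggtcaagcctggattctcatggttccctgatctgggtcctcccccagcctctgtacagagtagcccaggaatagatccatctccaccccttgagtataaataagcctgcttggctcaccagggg
The letters CG, which read the same on both strands, occur 23 times in the Fendrr window, 31 times in that of Hoxd13 and 25 times in that of Lhx2. At least as many were found in 13%, 4.93% and 10.3% of the 27025 promoters in the table, and the Agt window holds none, whereas 91.7% of promoters hold at least 1. Promoters of genes tested here hold more CG than the whole table, with a median of 14 against 6. Such counts are therefore less rare among genes tested than these shares show. These 4 windows were picked with their counts known and do not stand for the rises or the falls. Among genes that rose, the count went down to 6 in Foxa2, 5 in Tbr1 and 4 in Prrx1, and among genes that fell it reached 20 in Tubd1, 34 in Arl16 and 39 in Adap1. The starts used for Tbr1, Prrx1 and Adap1 lie 1590, 1495 and 299 bases from the gene's 5′ end, so these windows may not be the main promoter. For the 4 windows shown the distance is 0 to 10 bases. A comparison of CG content between rises and falls is void, because only 20 of the 37 genes that rose had a promoter in the table. No chromatin mark was measured here, and the letters are a description only.

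How far the genes that rose had already moved with 1 allele lost differed between them. Of the 37, 21 were also called higher than control in Ezh1-het by limma (5.91% of all genes tested were) and 36 in the double knockout (3.71%). These comparisons share arrays with the one that chose the 37. For 20 of the 37 no control array and for 10 no Ezh1-het array was well above background, while all 4 double knockout arrays were for each of the 37. The filter of at least 4 of 16 arrays has a part in this. A gene dim in all other genotypes could be tested only if all 4 double knockout arrays were well above background. The pattern is therefore no independent result. Between Ezh2-KO and Ezh1-het, 9 genes passed (0.0575%), and 5 of them passed again between Ezh1-het and double knockout, among them Ezh1, Hoxd13, Arl16 and Cdkn2c. Both steps share the Ezh1-het arrays, so their values are given side by side without a measure of likeness. Hoxd13 differed by 1.00 (SE 0.12) at the first step and by 1.33 (SE 0.12) at the second, and the difference between the steps did not pass (0.33, SE 0.22, adjusted p = 0.651).

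The difference between the steps passed for 3 genes (0.0192%). Foxf1 differed by 0.20 (SE 0.09) with the first allele lost and by 1.40 with the second, a gap of 1.20 (SE 0.15, limma adjusted p = 0.00331). For Ezh1 itself the log2 steps were -1.18 and -3.42, a gap of -2.25 (SE 0.27, adjusted p = 0.0023). The odorant receptor gene Olfr224 went the other way: it read 1.43 to 1.68 in Ezh1-het, 1.45 to 1.86 in the double knockout and -0.02 to 0.15 in controls and Ezh2-KO, so that a first step of 1.52 (SE 0.09) was followed by 0.11 (SE 0.09), with a gap of -1.40 (SE 0.15, adjusted p = 0.00114). Ezh1-het and double knockout arrays of Olfr224 overlapped, and on slide 1 alone the second step was -0.03.

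Among cell-cycle inhibitors, Cdkn2c, which encodes the cyclin-dependent kinase inhibitor p18, rose: 0.45, 0.48, 0.48 and 0.38 in Ezh1-het against 1.05, 0.94, 1.07 and 0.79 in the double knockout, a difference of 0.51 (SE 0.10, limma adjusted p = 0.0329), lost in 7 of 8 repeats that left out 1 array. It was the single call among 8 measured inhibitors (0.236% of all genes tested rose), whose median difference was -0.07. Cdkn2a, which encodes p16 and p19 and is a classical PRC2 target, was already at 3.56, 3.46, 3.35 and 3.62 in Ezh1-het and read 4.51, 3.97, 4.64 and 3.89 in the double knockout. Its arrays did not overlap, but the difference of 0.75 (SE 0.33, adjusted p = 0.321) did not pass with the spread of all 16 arrays, in which Ezh2-KO alone spanned 0.15 to 2.08; with the 8 arrays alone it did (adjusted p = 0.0133). Its neighbour Cdkn2b overlapped between the groups, at 1.65 to 1.89 against 1.17 to 2.18, with a difference of -0.07 (SE 0.22). Of 30 p53 targets none rose in limma, 9 were higher at an unadjusted p under 0.05, and 22 had a positive sign. Of all 15646 genes, 569 were higher at that level and 6609 had a positive sign. Their median difference was 0.17, and the largest positive difference, that of Phlda3, was 0.68 (SE 0.19, adjusted p = 0.112). Gadd45a, a DNA damage response gene of that list, fell by 0.51 (SE 0.11, adjusted p = 0.0493).

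The remaining rises mixed signalling and stress genes. Runx1t1, a transcriptional corepressor known as ETO, rose by 0.88, and Slc32a1, the vesicular transporter of GABA and glycine, by 0.87. Pik3r1, the regulatory subunit of PI3-kinase, rose by 0.69 and the metalloprotease gene Adam33 by 0.65. Ddit4 and Ddit4l, stress-induced inhibitors of mTOR signalling, rose by 0.56 and 0.46, and the orphan nuclear receptor Nr4a2 by 0.48. Clca1, a secreted regulator of chloride channels in goblet cells, rose by 0.74 from a level at which only 1 Ezh1-het array was well above background. Nrn1, a neurite growth factor, Rgs10, a brake on G-protein signalling, and Garem2 rose by 0.51, 0.50 and 0.43. Limma adjusted p ran from 0.00313 (Adam33) to 0.0493 (Pik3r1 and Ddit4) in this group. Adam33 and Clca1 kept their calls whichever of the 8 arrays was left out, and the other 9 lost theirs in at least 2 of 8 repeats.

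The falls were led, after Ezh1, by Aadat, an aminotransferase of lysine and tryptophan breakdown found in proximal tubule and liver. It read 2.00, 1.54, 1.22 and 0.98 in Ezh1-het and -0.82, -1.69, -0.70 and -1.84 in the double knockout. The groups lay far apart, but control 3 (-1.89) and Ezh2-KO 1 (-1.55) were also low: the former lay below every double knockout array and the latter within their range. Aadat fell by 2.69 (SE 0.54, limma adjusted p = 0.0443). Serpina6, the corticosteroid-binding globulin, fell by 1.51 (SE 0.29, adjusted p = 0.0317), the beta-defensin Defb29 by 1.31 (SE 0.26, adjusted p = 0.0448), and Fabp4, a fatty acid carrier of capillary endothelium and fat cells, by 1.30 (SE 0.26, adjusted p = 0.0449). Each of these 4 calls was lost whichever of the 8 arrays was left out, and each was kept with the 8 arrays alone.

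Agt, which encodes angiotensinogen, the substrate of renin, read 1.54, 1.69, 1.09 and 1.31 in Ezh1-het and 0.45, 0.16, 0.38 and -0.06 in the double knockout, while Ezh2-KO lay at 0.24 to 1.35 and no control array was well above background. Double knockout arrays were lower than all Ezh1-het arrays but overlapped Ezh2-KO. Agt fell by 1.17 (SE 0.18, 2.26-fold, limma adjusted p = 0.00661). B3galt5, a galactosyltransferase of glycolipid synthesis, read 0.23, 0.17, -0.07 and 0.20 against -0.69, -1.01, -0.54 and -1.0 and fell by 0.94 (SE 0.15, adjusted p = 0.00636). With Ezh1, these were the only falls whose calls held in all 8 repeats that left out 1 array, against 19 of the 35 rises named here.

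Other genes that fell serve transport, matrix and vessels: Timp3, an inhibitor of metalloproteases (by 1.05), the potassium channel gene Kcnj5 (by 0.97), Pafah2, a phospholipase that breaks down platelet-activating factor (by 0.78), Cldn16, the claudin of magnesium reabsorption in the thick ascending limb (by 0.77), Plxnd1, a semaphorin receptor of endothelium (by 0.77), and Ptgds, a prostaglandin D synthase (by 0.72). Cldn16 was well above background on 4 Ezh1-het arrays and on no double knockout array, a fall of at least 1.71-fold. Slc22a27, an organic anion transporter, fell at least 1.42-fold. C2cd2l fell by 0.58, Tinagl1 by 0.56, Adap1 by 0.50, and the lipid enzyme genes Acaa1a and Acly by 0.41 and 0.35. A second Acly probe differed by 0.12 in the opposite direction, the only such case among the 12 called genes with more than 1 probe past the filter. The summed endothelial marker level was 120% to 131% of the control mean on Ezh1-het arrays and 84.8% to 103% on double knockout arrays, and its part in the falls of Fabp4 and Plxnd1 was not tested.

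Against the other genotypes, most falls left the double knockout near the control level. In 18 of the 22 the Ezh1-het mean was above control, 11 of them called by limma (5.91% of all genes tested were). In 14 the double knockout lay within 0.5 of control, and in 13 it was nearer to control than Ezh1-het. No share over all genes was taken for the 14 and the 13. The 22 were chosen on the same Ezh1-het and double knockout arrays, so these counts are no independent result. Of the 22, only 5 were called lower than control in the double knockout (0.914% of all genes), and Ezh1 and Arl16 in Ezh1-het (1.9%). Control 3 lowered the control mean of some of these genes. Examples are Serpina6 (-1.41, other controls -0.70 to 0.15) and B3galt5 (-0.725, others -0.25 to -0.07). For others, such as Agt (-0.04, others -0.12 to -0.02), it did not stand apart. The double knockout mean was below the control mean for 20 of the 22.

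Arl16 and Tubd1 took another course. Arl16, a small GTPase of the ARL family, read -0.91, -0.66, -1.04 and -1.08 in Ezh1-het and -1.75, -1.98, -1.79 and -1.62 in the double knockout, against 0.03 to 0.22 in Ezh2-KO, so that it was lower at each step. Its 2 probes fell by 0.86 and 0.95 (SE 0.15 and 0.12, limma p adjusted over all probes 0.0287 and 0.00141). Tubd1, delta-tubulin, read -0.48, -0.46, -0.55 and -0.46 against -1.04, -1.30, -1.06 and -0.99 and fell by 0.61 (SE 0.11, adjusted p = 0.0303). Both lie on the chromosome that carries Ezh1, as do the calls of Acly, Hoxb13 and Gm11538. With Ezh1 these are 6 of 1302 genes tested there, or 0.461% called, against 0.377% of all genes tested. Of the 20 named genes on each side of Ezh1, 32 were measured and none passed in limma, 3 were lower and none higher at an unadjusted p under 0.05, and the median difference was -0.10.

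**Figure D3:**
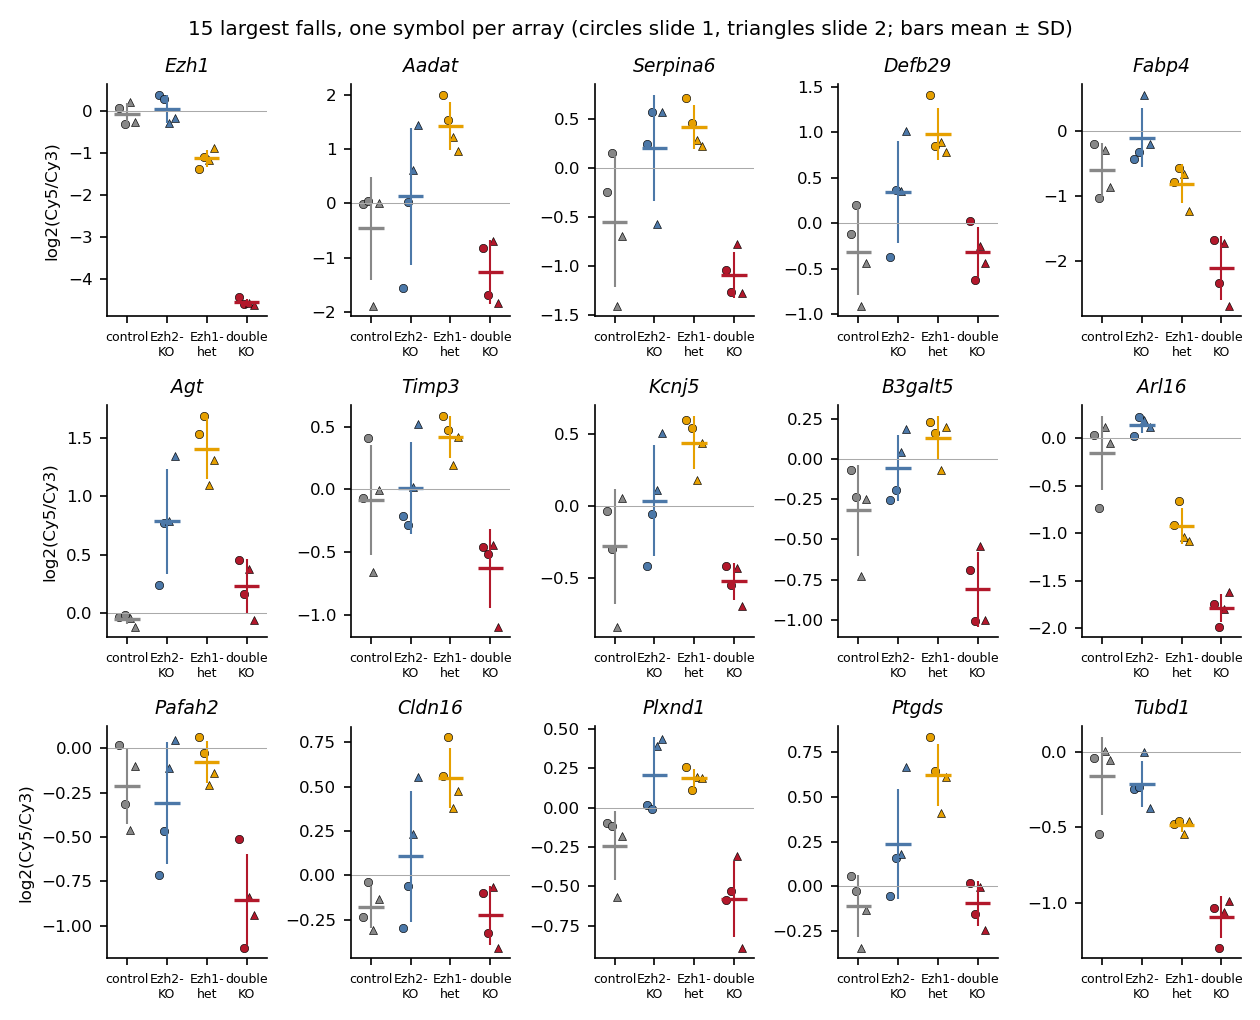
Each panel shows 1 of the 15 genes with the largest falls, with log2(Cy5/Cy3) on the y axis and the 4 genotypes on the x axis; symbols are arrays (circles slide 1, triangles slide 2), lines are means and bars SD (n = 4). The double knockout arrays lie below all Ezh1-het arrays in every panel, while control and Ezh2-KO arrays of genes such as Aadat spread from -1.89 to 1.44.

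Most genes of the mature tubule had negative differences, yet almost none passed with the spread of all 16 arrays. All 37 measured proximal tubule genes had a negative difference (median -1.23), and the arrays did not overlap for 33 of them (9.83% of all genes tested were lower without overlap). None passed in limma over 16 arrays, although 34 had an unadjusted p under 0.05. With only the 8 arrays in the fit 33 of 37 passed, all lower (5.61% of all genes), and 30 passed without control 3 and Ezh2-KO 1. The summed Cy5 level of the list was 104% to 157% of the control mean on Ezh1-het arrays and 23.2% to 60.1% on double knockout arrays. Control arrays ran from 30.1% to 160% and Ezh2-KO from 29.1% to 137%. Ezh1-het thus lay inside the range of the controls, and the double knockout reached from below it to its lower part.

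Aqp1, the water channel of proximal tubule and descending limb, read 0.67, 0.78, 0.33 and 0.36 in Ezh1-het and -1.38, -2.12, -1.23 and -2.38 in the double knockout. Control 3 (-1.92) and Ezh2-KO 1 (-1.95) lay within the double knockout range, and the other controls lay at -0.14 to -0.05. The difference was -2.31 (SE 0.50, limma adjusted p = 0.0584), and with the 8 arrays alone the same difference had SE 0.23 and adjusted p = 0.000397. Fbp1, the gluconeogenic fructose bisphosphatase, differed by -2.64 (SE 0.67, adjusted p = 0.0929), from 0.41, 0.49, 0.17 and -0.34 to -1.21, -2.94, -1.74 and -3.97. Double knockout 4 was the lowest array for both genes.

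Genes of the loop of Henle and distal tubule also leaned lower. Of 23 measured genes 1 fell (Cldn16, with 0.141% of all genes called lower), and 21 had a negative difference. The arrays did not overlap for 16 (9.83% of all genes were lower without overlap). The median was -0.83, and the 8 arrays alone called 16 lower (5.61%). Slc12a1, the salt cotransporter of the thick limb, read 1.26, 0.91, 0.13 and 0.58 against -0.74, -1.66, -1.83 and -3.14, with a difference of -2.56 (SE 0.65, limma adjusted p = 0.0929). All 9 measured genes of the kallikrein 1 family, secreted proteases with near-identical sequences that probes may not tell apart, had negative differences (median -1.35). None passed in limma, 8 had an unadjusted p under 0.05, and 7 passed with the 8 arrays alone (5.61% of all genes were called lower there). Klk1b5 and Klk1b26 differed by -2.50 and -2.34 (SE 0.57 and 0.53, adjusted p = 0.0713 and 0.0695).

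Glomerular and early nephron genes differed by less in the median. None of 27 podocyte genes passed in limma, 11 were lower at an unadjusted p under 0.05 (1574 of all 15646 genes were), and the median was -0.21. Clic5 of this list differed by -1.03 (SE 0.27, adjusted p = 0.102). Of 27 early nephron genes none passed, 9 were lower and 1 higher at an unadjusted p under 0.05, and the median was -0.44. The Notch target Hes5 had the largest difference of both that list and the Notch pathway list, at -1.32 (SE 0.56, adjusted p = 0.3). The 8 arrays alone called 8 podocyte and 11 early nephron genes lower (5.61% of all genes).

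Nephron progenitor genes did not pass in either direction. None of 28 was called in limma or had an unadjusted p under 0.05, and the median was 0.14. Six2, the factor of progenitor self-renewal, read -1.03, -0.32, -0.43 and -0.20 against -0.88, -0.21, -0.55 and 0.08, a difference of 0.10 (SE 0.26, adjusted p = 0.917). Cited1, a marker of the uncommitted progenitor, differed by -0.11 (SE 0.13), and Wnt4 and Lhx1 of the first epithelial vesicles by -0.05 and -0.33 (SE 0.16 and 0.31). The arrays of all 4 genes overlapped.

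**Figure D4:**
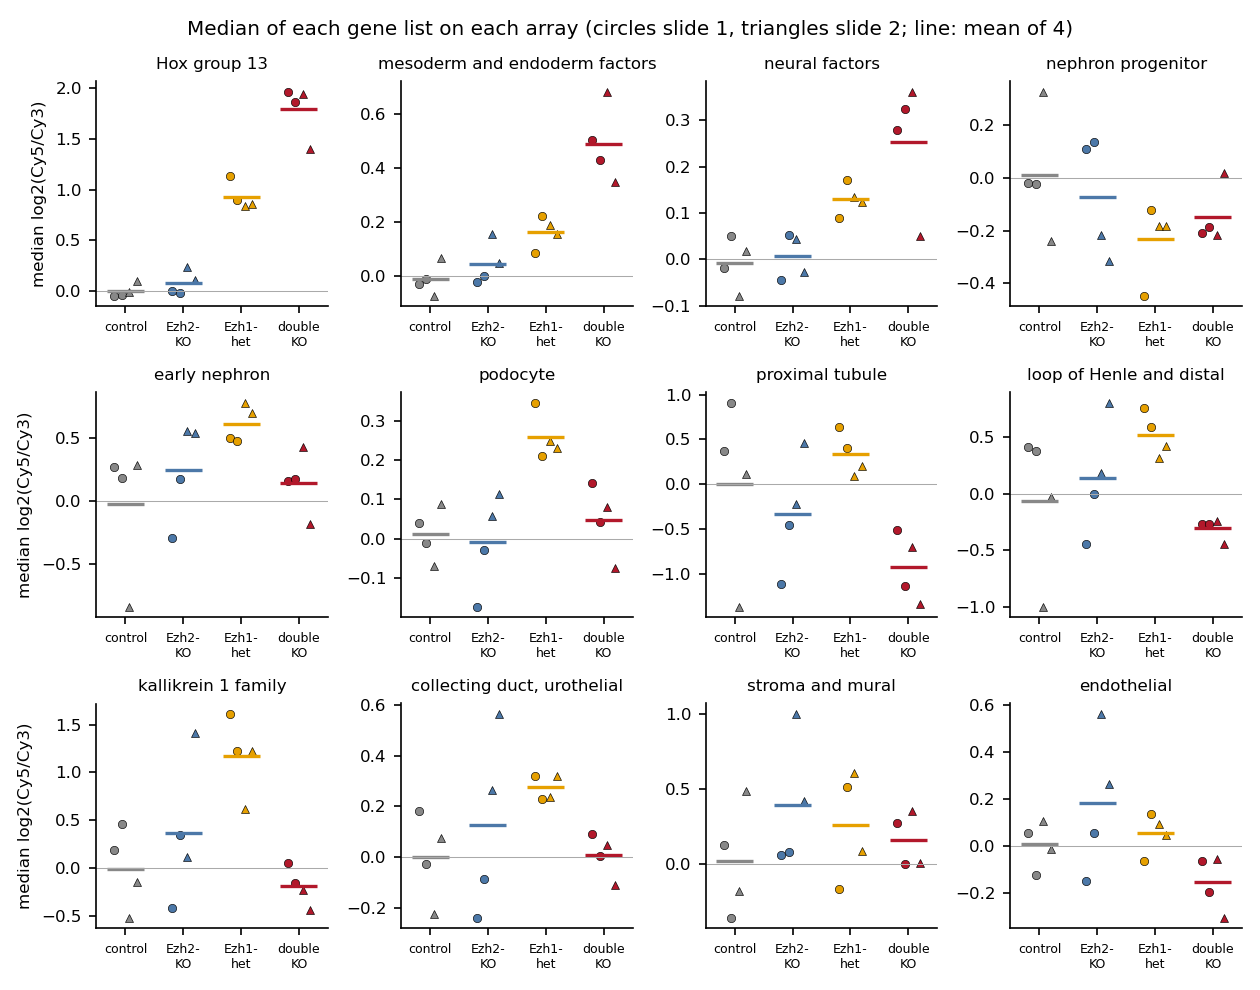
Each panel shows 1 gene list and the 4 genotypes on the x axis. The y axis holds the median over its measured members of log2(Cy5/Cy3) minus that gene's mean over the 4 controls. Symbols are arrays (circles slide 1, triangles slide 2) and lines the mean of 4. Hox group 13 climbs from 0.84 to 1.13 in Ezh1-het to 1.40 to 1.96 in the double knockout, and the proximal tubule medians of 0.10 to 0.64 and -1.33 to -0.51 both lie inside the control range of -1.36 to 0.91.

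Other cell types of the kidney, and cells that a dissected kidney can carry, were followed through their own lists. No gene passed among 26 measured collecting duct and urothelial genes (5 lower at an unadjusted p under 0.05), 28 of stroma and mural cells (3 higher and 2 lower), 15 of endothelium (1 higher and 3 lower), 11 of erythroid cells (5 lower), 14 of neutrophils and 19 of macrophages (none of either). Medians were -0.20, -0.01, -0.21, -0.13, -0.06 and 0.13. The summed erythroid level was 87.1% to 156% of the control mean in Ezh1-het and 26.1% to 91.4% in the double knockout. The largest erythroid difference was that of Hba-a1 (-1.75, SE 0.47, limma adjusted p = 0.103), whose arrays overlapped. The summed liver level was 151% to 200% in Ezh1-het and 109% to 226% in the double knockout. Liver genes (15 measured, 3 higher and 4 lower unadjusted), adrenal and gonad genes (13, 1 higher) and skeletal muscle and gut genes (11, 2 lower) had no call in limma either, and the part of these cell types in the calls was not tested. The 8 arrays alone called 8 collecting duct, 3 endothelial, 3 erythroid, 3 liver, 2 stromal and 2 muscle and gut genes lower (5.61% of all genes). They called 2 liver, 1 stromal and 1 adrenal and gonad gene higher (0.991% of all genes).

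Among the chromatin regulators listed, Ezh1 alone was called. Of 13 measured PRC2 subunits Ezh1 alone fell, and the median of the list was 0.06. Of 23 PRC1 subunits and 20 H3K27 demethylases and trithorax genes none passed in limma (2 higher and 1 lower, and 1 higher, at an unadjusted p under 0.05). None of 39 proliferation genes passed (2 higher, 2 lower unadjusted), nor any of 19 Wnt targets (4 lower), 19 Notch genes (5 lower), 27 imprinted genes (3 higher), 17 let-7 and oncofetal genes (4 higher), 4 germline genes (1 higher) and 18 injury and senescence-secretory genes (5 lower). Immediate early and heat shock genes had the highest median of these lists, 0.34, with 5 of 20 higher and 1 lower unadjusted, and Nr4a1 at 1.04 (SE 0.35, adjusted p = 0.183).

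A list of 28 genes known to stand highest above control in the knockout groups was followed across the second step. Of these 28, 4 rose (Ebf3, Foxf1, Hoxb13 and Hoxd13) and none fell in limma, against 0.236% and 0.141% of all genes. In the list 15 had a negative difference, and the median was -0.05. At an unadjusted p under 0.05, 11 were higher and 6 lower, and the 8 arrays alone called 7 higher and 5 lower (0.991% and 5.61% of all genes). The list was chosen on arrays that include the double knockouts, so the count is no independent evidence. Bcl11a, a zinc finger repressor, and Lin28b, an inhibitor of let-7 processing, averaged 1.82 and 1.80 in Ezh2-KO and differed by 0.33 and -0.20 between Ezh1-het and double knockout (SE 0.13 and 0.12), the latter turning to 0.26 with Agilent's processed signals. The non-coding RNA Miat differed by 0.68 (SE 0.29), and the arrays of all 3 overlapped. Pappa2, a protease of insulin-like growth factor binding proteins, read 1.68, 1.36, 1.33 and 1.23 in Ezh1-het against -0.12, -0.62, -0.23 and -1.10 and differed by -1.91 (SE 0.46, limma adjusted p = 0.0848). Of 17 genes known to stand lowest against control none passed in limma, 4 were higher at an unadjusted p under 0.05, and the median was 0.24.

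The size of the differences was also taken on each slide. The groups overlap for none of the 59 genes, which fixes the sign on both slides, so the signs are no check. Foxf1 differed by 1.33 on slide 1 and 1.46 on slide 2, Hoxd13 by 1.08 and 1.58, Aadat by -3.02 and -2.37, Agt by -1.31 and -1.04 and Ezh1 by -3.28 and -3.57. No gene passed for a difference between the slides in limma, and 175 had an unadjusted p under 0.05.

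**Figure D5:**
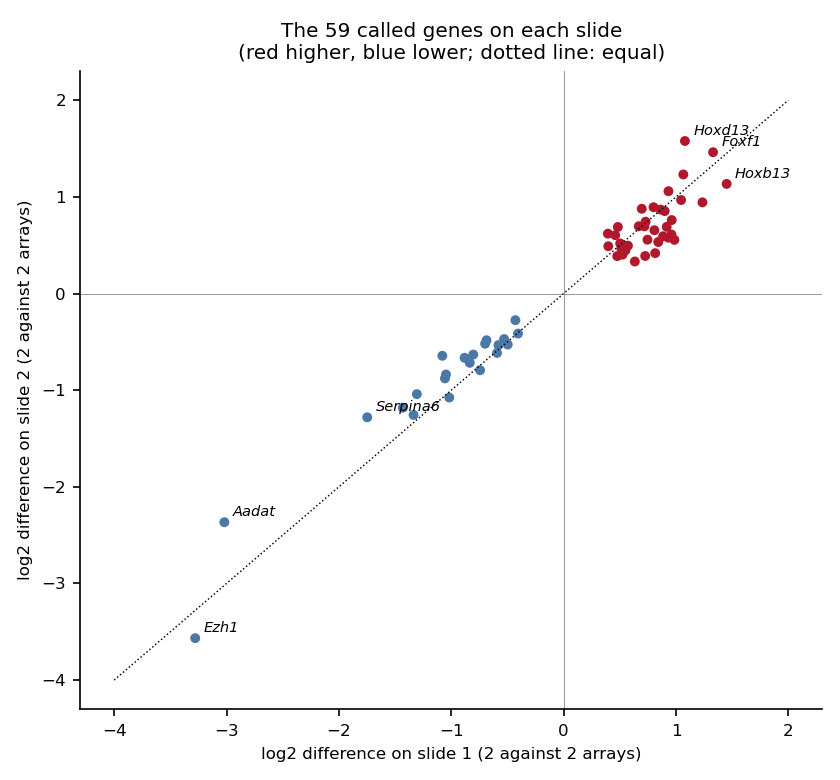
Each point is 1 of the 59 called genes (red higher, blue lower), with its log2 difference between double knockout and Ezh1-het on slide 1 on the x axis and on slide 2 on the y axis, 2 against 2 arrays each; the dotted line marks equality. Equal signs follow from groups that do not overlap; the distance from the dotted line shows how far the sizes differ, as for Aadat at -3.02 and -2.37.

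With every non-control probe tested, without a filter or a choice of 1 probe per gene, 67 of 56605 probes passed (0.118%), 47 higher and 20 lower, and 62 of them carried the symbol of 1 of 57 genes. Among those missing from the gene-level calls were Six3os1, an antisense RNA gene at the eye factor Six3 (at least 1.99-fold higher), Gata4 (at least 1.49-fold), Zic1 (at least 1.44-fold) and Isl1 (at least 1.36-fold), factors of heart, brain and motor neurons, named after their values were seen. The probes of all 4 were well above background on no Ezh1-het array and on 3 or 4 double knockout arrays. The brighter probe that stands for Six3os1 in the gene-level fit differed by 0.14 (SE 0.12, adjusted p = 0.669). The other 5 probes have no symbol here. Probes A_55_P2294074 and A_51_P513720 rose by 1.02 (SE 0.11) and 0.58 (SE 0.08, limma adjusted p over all probes 0.000272 and 0.00757). Probes A_55_P2223851 and A_66_P132734 fell by 0.93 and 0.70 (adjusted p = 0.0066 and 0.0497), and A_51_P472879, also called lower, was not well above background on any of the 8 arrays.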

How the data were processed

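RNA of 16 kidney samples (4 per genotype) was measured on Agilent 2-colour arrays. The authors deposited median signal intensities per channel, Feature Extraction's processed intensities and log10 ratios, and a value table of log10 ratios (all column medians 0). Per the submitters' processing notes and the file headers, Agilent Feature Extraction 10.7.3.1 was used, and the value table's log10 values matched the scanner files' log10 ratios within 0.005. Scanner files held 62976 features, 3671 of them controls, and 56605 distinct probes. Of these 32994 had 1 gene symbol, 23611 none and 0 several; names came from the files and RefSeq accessions, of which 29339 of 29638 matched.

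Median signals were background-corrected by normexp (offset 50) and normalised within each array by loess, in which control spots had no weight. Spots flagged as outliers were dropped. Log2(Cy5/Cy3) was averaged over spots of a probe. A probe was kept if its Cy5 signal was well above background on 4 or more of 16 arrays, and the brightest probe stood for its gene. All 16 arrays were fitted together in limma 3.58.1 (R 4.3.3), with a Benjamini-Hochberg threshold of 0.05, and the script was tested on simulated data. The number of arrays limits the precision. A gene well above background on no array of a group is given as a lower bound ("at least"). It sets the brighter group's mean against the higher of the dim probe's own value and each array's lowest signal well above background. Where this exceeded the fold change from the log2 difference, that fold change is given instead. Most printed bounds, such as those of Foxa1 (1.82), Nkx2-5 (1.80) and Esx1 (1.75), equal that fold change. A fold change from ratios rests on 1 dye orientation, so dye bias is not balanced.

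Members and gene lists were chosen with earlier results of these data known. Named were Ezh1 and Ezh2, the 15 largest rises and falls past the threshold without overlap, members of each list past the threshold and those with the largest differences, preset regulators and unnamed probes past the threshold; the other calls were named because their number allowed it. Some genes this rule names are not reported here. Alternatives covered the arrays in the fit, slide and replicate blocks, signals, normalisation, filter, prior, array weights, probe choice and left-out arrays.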

Additional observations from a re-analysis of the deposited data

Results flagged for a closer look

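The size of the second allele's step differed from that of the first for 3 genes in limma. The gap, second minus first step, was -2.25 for Ezh1, 1.20 for Foxf1 and -1.40 for Olfr224.

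In 11 of 174 groups of 4 arrays examined (the named genes in Ezh1-het and double knockout), 1 array stood far from the other 3 by Dixon's criterion, which chance alone gives for about 1 in 20 groups. Double knockout 4 was low for Ddit4 (-0.029, others 0.48 to 0.52), Hoxa13 (1.11, others 1.57 to 1.66), Timp3 (-1.10, others -0.52 to -0.44), Robo4 (-1.16, others -0.76 to -0.68) and Slc22a27 (-0.54, others -0.37 to -0.35). Double knockout 1 was high for Rgs10 (1.25, others 1.00 to 1.03) and low for Acly (-0.34, others -0.18 to -0.16). Double knockout 3 was high for Lhx2 (1.04, others 0.51 to 0.59). Among Ezh1-het arrays, the second was high for Hoxd13 (1.29, others 1.04 to 1.07), the first high for Hoxd8 (0.52, others 0.01 to 0.08), and the third low for Tinagl1 (0.16, others 0.46 to 0.48).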

How the results depend on the processing

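The fall of Ezh1 kept its direction and call under all 25 alternatives. The number of genes called (59) depended most on the arrays that set the spread: it was 1033 with only the 8 arrays compared, 201 with the 12 Ezh2-deficient arrays, 314 without controls 2 and 3, and 963 with array weights, and each of these held all 59. Chosen after seeing the data, the 8 arrays with a slide block gave 1021 and the fit without control 3 and Ezh2-KO 1 gave 696. Fewer were called on slide 1 alone (34) and slide 2 alone (3), with processed signals (37) and with the value table (35). Probes well above background on all 8 arrays gave 19, where fewer genes were tested, and leaving out 1 of the 8 arrays gave 26 to 37. Not all of these calls were among the 59. Shared with the 59 were 13 on slide 1, 3 on slide 2, 22 with processed signals and 21 with the value table. The all-8 filter shared 19, and the fits without 1 array shared 26 to 36. For the 67 probes called, the same settings gave 1273 (8 arrays), 152 (12 arrays), 262 (without controls 2 and 3), 194 (array weights), 1322 (8 arrays, slide block), 635 (without control 3 and Ezh2-KO 1), 4 (slide 1), 3 (slide 2), 25 (all-8 filter) and 32 to 49 with 1 array left out. The 3 calls for a difference between the steps became 490 on slide 1, 0 on slide 2, 673 with array weights, and 5 each with processed signals, the value table and the mean of a gene's probes. The slide contrast had 0 to 3 calls, with 3 without double knockout 1. Same-numbered arrays deviated together in 2 of the 4 pairs (correlations 0.51 and 0.44) and not in the other 2 (-0.01 and -0.08), so the numbers were not taken as pairs; with the replicate block 41 genes were called, 37 of them shared with the 59. Signs turned for Olfr224 on slide 1 (-0.026), Cdkn2b (0.0039 on slide 2, 0.22 with array weights, -0.24 to 0.10 with 1 array left out), Cited1 on slide 2 (0.025), Lin28b (0.26 with processed signals, 0.28 with the value table), Six2 (-0.092 with array weights, -0.075 to 0.27 with 1 array left out) and Wnt4 (-0.13 to 0.086 with 1 array left out), none of them called in this comparison. Except where the text says otherwise, the cause was not tested. Ezh1 has 1 probe, so no fit of its probes apart could be made. Over named genes, 1606 alternative values kept direction and call, 497 lost the call, 91 gained it and 13 turned sign. The size of a difference could change more. Esx1 ran from 0.69 to 3.86, Hoxc12 from 0.59 to 3.62 and Hoxb13 from 1.11 to 3.26, while Rgs10 ran from 0.44 to 0.57. With 4 arrays a group, signal over background limits what can be said of genes dim in Ezh1-het.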
